A study of Mus musculus with 8 samples.

Results

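Expression of 10 genes of bile acid synthesis, conjugation, transport and sensing was compared between livers of wild-type mice and of mice with 1 floxed allele of eIF2α, a translation initiation subunit that is phosphorylated under stress. The genes were chosen by symbol, and all 10 were found among the 56077 genes and loci of the deposited count table. They were Cyp7a1, Cyp8b1, Cyp27a1, Cyp7b1, Cyp2c70, Hsd3b7, Baat, Slc10a1, Abcb11 and Nr1h4. The wild-type group held 4 C57BL/6 mice, and the other group held 4 C57BL/6 mice whose genotype is written Eif2a flox/+ in one label and eIF2α flox/+ in another. All were 6 months old, lean, fed freely under 12 h of light and 12 h of dark, and killed at 6:30 am in the fed state. No recombinase is named, so whether the floxed allele was recombined, and in which cells, is unknown here, and a label shared by both groups calls the mice wild-type. Total RNA of whole liver was sequenced after removal of ribosomal RNA. Nothing says that mice of a group came from separate litters, so p-values measure only the spread between these samples.

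Bile acids are made from cholesterol in hepatocytes. In the classical route CYP7A1 adds the first hydroxyl group and sets the rate, HSD3B7 converts the sterol ring, and CYP8B1 directs the product to cholic acid. In the alternative route CYP27A1 oxidises the side chain and CYP7B1 hydroxylates the resulting oxysterol. In mice CYP2C70 then makes muricholic acids, and BAAT joins bile acids to taurine. Slc10a1 encodes NTCP, which takes bile acids up from blood, Abcb11 encodes BSEP, which exports them into bile, and Nr1h4 encodes FXR, the nuclear receptor that senses them and lowers Cyp7a1 transcription.

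The 250 bases before the RefSeq start of Cyp2c70, Cyp8b1 and Slc10a1 are shown because these were the members whose windows held any motif searched, and because the members behaved differently from each other. All lie on the minus strand of GRCm38.p6, at chr19:40187287-40187536, chr9:121916306-121916555 and chr12:80968706-80968955, and are written 5′ to 3′ along the gene. Capitals mark TATAAA, or TTTATA where the match was on the opposite strand.

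Cyp2c70: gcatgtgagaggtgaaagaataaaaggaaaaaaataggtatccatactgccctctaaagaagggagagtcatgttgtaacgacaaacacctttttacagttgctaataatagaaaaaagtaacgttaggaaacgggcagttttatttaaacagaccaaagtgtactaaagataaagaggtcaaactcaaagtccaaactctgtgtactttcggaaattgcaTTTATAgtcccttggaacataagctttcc
Cyp8b1: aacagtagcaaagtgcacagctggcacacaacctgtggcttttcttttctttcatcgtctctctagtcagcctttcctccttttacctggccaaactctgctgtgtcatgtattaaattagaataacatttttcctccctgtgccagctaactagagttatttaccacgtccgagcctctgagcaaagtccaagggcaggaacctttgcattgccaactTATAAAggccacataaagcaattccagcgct
Slc10a1: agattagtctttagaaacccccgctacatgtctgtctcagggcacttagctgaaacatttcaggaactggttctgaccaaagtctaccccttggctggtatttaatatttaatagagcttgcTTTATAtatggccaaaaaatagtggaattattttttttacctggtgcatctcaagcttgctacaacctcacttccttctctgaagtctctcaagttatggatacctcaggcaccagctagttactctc

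The match began 29 bases before the start in Cyp2c70, 31 bases before it in Cyp8b1 and 128 bases before it in Slc10a1. RefSeq windows of 300 bases, from 250 before to 50 after the start, were found for 7 of the 10 members, with 2 windows for Slc10a1. Cyp7a1, Cyp7b1 and Baat had no window. TATAAA was in 3 of the 8 member windows and in 13.6% of 32851 windows of all genes, counting both strands. CACGTG, an E-box, was in 7.15% of all windows, TTATGTAA, a D-box, in 0.938%, TGACCTTTG, part of an HNF4 site, in 0.478% and TCAAGGTCA, an NR5A2 site, in 0.423%. The DR-1 direct repeat of AGGTCA was in 0.0396%, and the IR-1 inverted repeat of AGGTCA, to which FXR binds, and the palindromic HNF1 site were in 0.00913% each. DR-1 and IR-1 share 1 copy of AGGTCA. None of these 7 was in a member window. The RefSeq start of Cyp2c70 lies inside the bounds of the gene in GENCODE.

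Library totals ran from 25626355 to 27799097 counts in wild type and from 22177979 to 28564357 in flox/+. Eif2s1, the gene of eIF2α, stood at 28.4, 28.8, 32.8 and 30.1 CPM (counts scaled to library size) in W32, W33, W76 and W90 of the wild type. It stood at 20.5, 22.3, 20.8 and 25.1 CPM in H11, H12, H15 and H75 of flox/+, with no overlap. Its log2 fold change was -0.44, with an adjusted p of 0.315 in edgeR, 0.0159 in DESeq2 and 0.0208 in the authors' deposited table. Hepatocyte markers such as Alb summed to 84362 to 111040 CPM in wild type and 95240 to 104200 CPM in flox/+, so the libraries carried the labelled tissue. Of 7 ileal genes, Fabp6, Sis and Fgf15 were at 0 in all 8 libraries, while Apoa4, which liver also expresses, was at 174 to 496 CPM and Slc10a2, also a bile duct gene, at 27.5 to 86.1 CPM. Of 6 pancreatic genes, Prss2, Cpa1, Pnlip, Amy2a1 and Ctrb1 were at 0, and Cela1 was at 5.55 to 10.97 CPM in wild type and 17.0, 17.1, 8.07 and 15.96 CPM in H11, H12, H15 and H75 (unadjusted p = 0.0163, edgeR). Libraries H15 and W32 stood apart from their groups. In H15 the median of 22 acute phase genes, relative to the wild-type mean, was 0.088 on the log2 scale, while H11, H12 and H75 had 0.65, 1.81 and 1.43 and wild type ran from -0.18 to 0.27. In W32 a list of 13 male-biased liver genes summed to 4691 CPM against 11471 to 17068 CPM in the other wild-type libraries. Mup20 (2070 CPM) and Serpina1e (935 CPM) were the largest terms of that W32 sum. In W32 10 female-biased genes summed to 71.5 CPM against 5.86 to 8.29 CPM. The Y-linked genes of the male-biased list were inside or above the range of the other wild-type libraries. Ddx3y was at 56.8 CPM in W32 against 44.1 to 48.9 CPM, and Kdm5d at 17.2 against 14.6 to 20.04 CPM. Uty was at 10.8 against 8.40 to 11.99 CPM, and Eif2s3y at 41.7 against 38.9 to 44.4 CPM. Xist, of the female-biased list, had at most 11.35 counts in any library. Member results are given below with and without H15 where a call changed.

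Across the members, 4 had a higher and 6 a lower mean in flox/+ livers, and most differed little. All 10 passed the filter on low counts, with 731 to 22958 counts per library. With edgeR's quasi-likelihood test no member reached an adjusted p under 0.05, and over all 14261 genes tested the share called was 0.0%. DESeq2 called Cyp2c70 alone among the members, where it called 1.12% of all genes, and limma-voom called no member and 0.0% of all genes. At an unadjusted p under 0.05 there were 2 members, Cyp2c70 and Cyp7b1, both higher, where 9.34% of all genes passed. Cyp2c70 was the only member whose groups did not overlap, against 4.38% of all genes (2.06% higher and 2.32% lower). The median log2 fold change was -0.0063 over the members and 0.0051 over all genes. Summed over the 10 members, the level was 3424, 3605, 3711 and 3420 CPM in wild type and 3727, 3854, 3796 and 4082 CPM in flox/+, in the library order above, which is kept below.

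**Figure D1:**
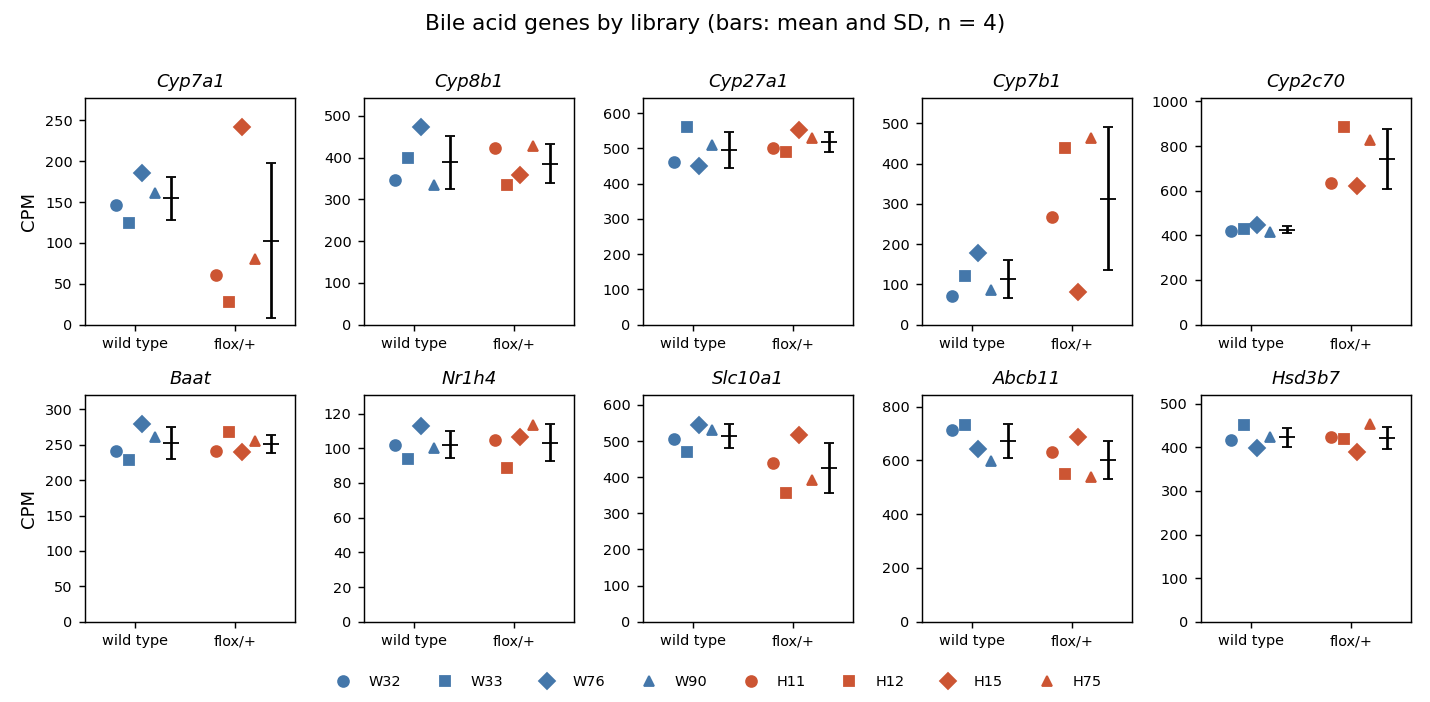
Expression of each of the 10 bile acid genes in CPM (vertical axis, linear from 0) in 4 wild-type (blue) and 4 flox/+ (orange) libraries, with the mean and SD of each group as bars. Cyp2c70 is higher in every flox/+ library, and Cyp7a1 and Cyp7b1 of H15 sit apart from the other flox/+ points.

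Without H15, edgeR called 3 members, Cyp2c70 and Cyp7b1 higher and Cyp7a1 lower, where it called 1.74% of 14505 genes. At an unadjusted p under 0.05 that edgeR fit held 4 members, with Slc10a1 added, where 16.0% of all genes passed. Limma-voom without H15 called the same 3 members, and 1.36% of all genes. Each of the 8 libraries was left out in turn, and in the other 7 edgeR fits no member was called. H15 was singled out on the values of these same libraries, and its Cyp7a1 and Cyp7b1 sat apart from the other flox/+ libraries. The calls made without it are therefore no independent support for a difference.

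**Figure D2:**
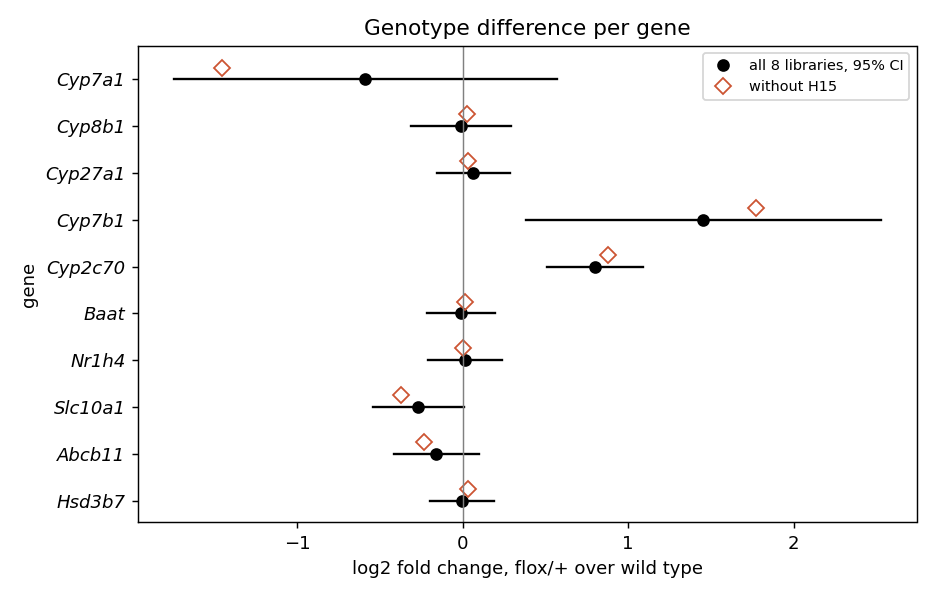
log2 fold change of flox/+ over wild type for the 10 members (horizontal axis) from the edgeR fits, with all 8 libraries (black points, lines are 95% confidence intervals) and without H15 (open diamonds). Cyp2c70 and Cyp7b1 lie above 0 in both fits, and Cyp7a1 moves from -0.59 to -1.45 when H15 is left out.

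Cyp7a1, the rate-setting enzyme of the classical route, split the flox/+ livers. Its levels were 146, 124, 186 and 161 CPM in wild type. In flox/+ they were 61.0, 28.2, 241.5 and 80.0 CPM. Thus H11, H12 and H75 lay below every wild-type library, and H15 lay above all of them. The group means were 154 ± 25.9 and 103 ± 95.005 CPM (SD, n = 4 each), and the coefficient of variation was 16.8% in wild type and 92.5% in flox/+. The log2 fold change was -0.59 (SE 0.52, 95% interval -1.75 to 0.57, adjusted p = 0.750, edgeR). It was -1.45 without H15 (adjusted p = 0.0498, edgeR, range over 20 settings 2.52e-05 to 0.973) and -0.28 without H12. Limma-voom gave -1.01 with all libraries. In bulk tissue, fewer cells of a type and less RNA per cell cannot be told apart. Cyp7a1 (ENSMUSG00000028240) lies on the minus strand of chromosome 4, from 6265612 to 6275633 of GRCm38, as do all positions below.

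Cyp7b1, the oxysterol hydroxylase of the alternative route, differed in the opposite direction in the same livers. Wild-type levels were 70.6, 121, 178 and 86.6 CPM. The flox/+ levels were 268, 439, 80.3 and 463 CPM. H11, H12 and H75 lay above every wild-type library, whereas H15 lay inside the wild-type range. Means were 114 ± 47.5 and 313 ± 178 CPM (SD, n = 4 each), a fold of 2.74, with a log2 fold change of 1.45 (SE 0.48, 95% interval 0.38 to 2.53). The unadjusted p was 0.0130 and the adjusted p 0.436 (edgeR). It passed without H15, at a log2 fold change of 1.77 (adjusted p = 0.0287, edgeR, range 1.67e-07 to 0.801). Cyp7b1 is known as a male-biased gene of mouse liver, and W32, low in the sum of the male-biased list, had its lowest level. The male-biased list summed to 4691 to 17068 CPM in wild type and 19240, 30077, 11803 and 29084 CPM in flox/+. For this sum too, H15 alone of the flox/+ libraries was inside the wild-type range. Without W32 the log2 fold change of Cyp7b1 was 1.28, and the part of the sex-biased genes in the result was not tested. Cyp7b1 (ENSMUSG00000039519) spans 18071950 to 18243338 on the minus strand of chromosome 3.

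The level of Cyp7b1 relative to Cyp7a1, both per kilobase, put these differences on a single scale within each library. The ratio was 0.929, 1.88, 1.84 and 1.04 in wild type. It was 8.47, 30.0, 0.640 and 11.1 in flox/+. So 3 flox/+ livers had more Cyp7b1 per kilobase than any wild-type liver relative to Cyp7a1, and H15 had the lowest ratio of the 8. The ratios of Cyp8b1 and Cyp27a1 to Cyp7a1 share this denominator. Both numerators had log2 fold changes near 0 (-0.010 and 0.066), so these ratios restate the Cyp7a1 levels and are no separate result. They were above the wild-type range in H11, H12 and H75, from 11.4 to 25.4 and from 14.6 to 38.3. In H15 they were the lowest of the 8, at 3.17 and 5.05. Wild-type ratios ran from 4.46 to 6.88 for Cyp8b1 and from 5.33 to 9.95 for Cyp27a1.

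**Figure D3:**
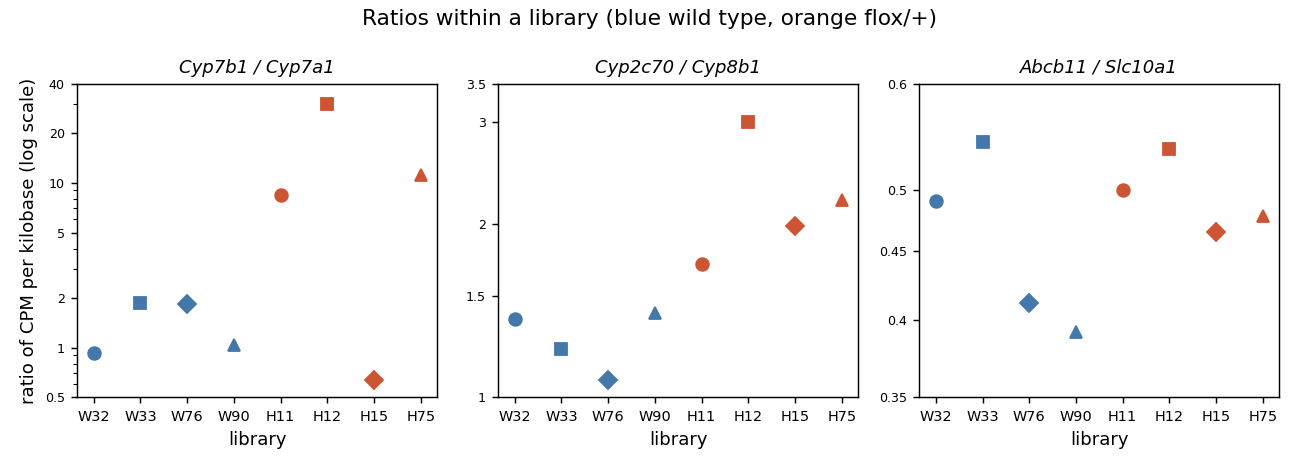
Ratios of CPM per kilobase within each library (vertical axis, log scale) for Cyp7b1 over Cyp7a1, Cyp2c70 over Cyp8b1 and Abcb11 over Slc10a1, in wild-type (blue) and flox/+ (orange) libraries. Cyp2c70 over Cyp8b1 is above the wild-type range in all 4 flox/+ libraries, and the other ratios overlap.

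Cyp2c70, which makes muricholic acids in mice, was higher in every flox/+ liver. Its levels were 417, 427, 447 and 413 CPM in wild type, a tight range. They were 632, 884, 623 and 829 CPM in flox/+. The groups did not overlap, and H15 was among the flox/+ libraries rather than among the wild-type ones. Means were 426 ± 15.1 and 742 ± 134 CPM (SD, n = 4 each), a fold of 1.74. The log2 fold change was 0.80 (SE 0.13, 95% interval 0.51 to 1.09), and the gene ranked 7 among all genes by unadjusted p (0.000111). The adjusted p was 0.196 with edgeR and 7.64e-06 with DESeq2. With no filter on low counts it was 0.0321 (edgeR, where 0.0699% of genes were called), and without H15 the log2 fold change was 0.88 (adjusted p = 0.0124, edgeR). Over 20 settings the adjusted p ran from 9.30e-09 to 0.588 and the log2 fold change from 0.70 to 0.88. In the authors' deposited table the fold was 1.75 with an adjusted p of 9.18e-06, where 0.552% of genes had an adjusted p under 0.05. The gene is not marked significant there, as the 74 genes so marked had an absolute log2 fold change of at least 1.001. Cyp2c70 (ENSMUSG00000060613) lies on the minus strand of chromosome 19, from 40153353 to 40187333.

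Cyp8b1, the sterol 12-hydroxylase that directs synthesis to cholic acid, did not share the difference of Cyp2c70. It stood at 347, 399, 473 and 335 CPM in wild type and at 422, 335, 358 and 428 CPM in flox/+. The log2 fold change was -0.010 (SE 0.13, 95% interval -0.31 to 0.29), and its sign changed when single libraries were left out, to 0.099 without W76. The ratio of Cyp2c70 to Cyp8b1 per kilobase was 1.37, 1.21, 1.07 and 1.40 in wild type and 1.70, 2.999, 1.98 and 2.198 in flox/+, without overlap. Cyp8b1 (ENSMUSG00000050445), a gene of a single exon, spans 121914356 to 121916305 on the minus strand of chromosome 9.

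Other enzymes of synthesis and conjugation overlapped between the groups and were near 0 in log2 fold change. Cyp27a1, the mitochondrial side-chain hydroxylase (ENSMUSG00000026170, plus strand of chromosome 1, 74713574 to 74737892), had 461, 560, 450 and 510 CPM in wild type and 502, 489, 553 and 529 CPM in flox/+. Its log2 fold change was 0.066 (95% interval -0.16 to 0.29) and turned to -0.018 with library totals as the scaling. Hsd3b7, which acts on the sterol ring (ENSMUSG00000042289, plus strand of chromosome 7, 127800604 to 127803802), had 418, 452, 397 and 424 CPM against 425, 418, 390 and 453 CPM. Its log2 fold change was -0.0041 (95% interval -0.20 to 0.19) and turned to 0.032 without W33. The Hsd3b7 counts carried fractions in all 8 libraries, and its exons overlap Gm49388 on the same strand and 9430064I24Rik on the other, so its level is uncertain. Baat, the conjugating enzyme (ENSMUSG00000039653, minus strand of chromosome 4, 49489422 to 49506557), had 241, 229, 279 and 262 CPM against 241, 267, 240 and 256 CPM. Its log2 fold change was -0.0084 (95% interval -0.21 to 0.20) and turned to 0.044 without W76.

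The transporters had lower means in flox/+ livers. Slc10a1, the uptake carrier NTCP, stood at 507, 469, 545 and 531 CPM in wild type. In flox/+ it stood at 440, 356, 516 and 392 CPM. H11, H12 and H75 were below the lowest wild-type library, and H15 was inside the range. The log2 fold change was -0.27 (SE 0.12, 95% interval -0.54 to 0.0068, adjusted p = 0.544, edgeR). Without H15 it was -0.37 (adjusted p = 0.127, edgeR), and DESeq2 called it in the same libraries (adjusted p = 0.0238, range over all settings 0.0238 to 0.927), where it called 5.37% of genes. Slc10a1 (ENSMUSG00000021135) spans 80953183 to 80968705 on the minus strand of chromosome 12.

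Abcb11, the canalicular export pump BSEP, had 714, 731, 644 and 597 CPM in wild type and 631, 548, 688 and 538 CPM in flox/+. H12 and H75 were below the lowest wild-type library, and the other flox/+ libraries were inside the range. The log2 fold change was -0.16 (SE 0.11, 95% interval -0.41 to 0.096, adjusted p = 0.692, edgeR). The ratio of Abcb11 to Slc10a1 per kilobase ran from 0.392 to 0.543 in wild type and from 0.465 to 0.536 in flox/+, so the groups overlapped. Abcb11 (ENSMUSG00000027048, minus strand of chromosome 2, 69238282 to 69342616) overlaps Gm13613 and Gm13614 on the other strand. Reads of the strands cannot be told apart, as no source here states a strand setting.

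Nr1h4, the receptor FXR, had 102, 93.6, 113 and 100.3 CPM in wild type and 105, 88.5, 106.5 and 113 CPM in flox/+. The groups overlapped throughout, with a log2 fold change of 0.015 (SE 0.0995, 95% interval -0.21 to 0.24). With library totals as the scaling it was -0.067, a scaling that moved the median of all genes from 0.0051 to -0.079. Nr1h4 (ENSMUSG00000047638) lies on the minus strand of chromosome 10, from 89454234 to 89533585.

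Per kilobase of the deposited gene length, Slc10a1 had the highest and Cyp7a1 the lowest mean among the members in wild type. Slc10a1 (293 ± 19.0 CPM per kilobase, SD, n = 4), Cyp27a1 (262 ± 26.7), Cyp2c70 (248 ± 8.79) and Hsd3b7 (231 ± 12.4) were the most abundant, and Cyp8b1 followed at 199 ± 32.2. Neighbours in this order overlapped in mean ± SD between libraries. Within each wild-type library, however, Cyp2c70 (243, 248, 260 and 241) was above Hsd3b7 (228, 247, 217 and 232). Abcb11 (134 ± 12.3) and Baat (130 ± 11.4) were intermediate and did not differ beyond their spread. Cyp7b1 (52.7 ± 21.9), Nr1h4 (51.5 ± 3.99) and Cyp7a1 (37.0 ± 6.22) were lowest, and Cyp7b1 and Nr1h4 did not differ beyond their spread. In flox/+ livers Cyp2c70 was the most abundant at 432 ± 78.1 CPM per kilobase, ahead of Cyp27a1 at 274 ± 14.99 and Slc10a1 at 243 ± 39.5. Cyp7b1 was at 144 ± 82.0, a spread that covers Baat at 129 ± 6.80 and Abcb11 at 120 ± 14.2. Cyp7a1 had the lowest mean in both groups, at 24.6 ± 22.8 in flox/+ beside 52.0 ± 5.29 for Nr1h4. This order did not hold in every library, since in H15 Cyp7a1 (57.9) was above Nr1h4 (53.7) and Cyp7b1 (37.1), and in W32 it (35.1) was above Cyp7b1 (32.6).

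The libraries in which Cyp7a1 and Slc10a1 were low and Cyp7b1 was high were also those with high acute phase genes, which hepatocytes transcribe in inflammation. All 22 acute phase genes had a higher mean in flox/+ livers, and 16 had an unadjusted p under 0.05 in that direction, where 4.9% of all genes did. None was called with edgeR over all 8 libraries. With DESeq2 11 were called, where 1.12% of all genes were, and with edgeR without H15 13 were called, where 1.74% were. Their summed level was 14354 to 17507 CPM in wild type and, in library order, 22556, 32186, 16543 and 29310 CPM in flox/+. Saa1, a serum amyloid, was at 10.9 to 32.3 CPM in wild type and at 113, 601, 20.9 and 428 CPM in flox/+. Within flox/+, Cyp2c70 had the same order of libraries as the acute phase median, H12, H75, H11 and then H15. H15, whose acute phase level was inside the wild-type range, was above every wild-type library in Cyp2c70. The part of the acute phase genes in the results was not tested.

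**Figure D4:**
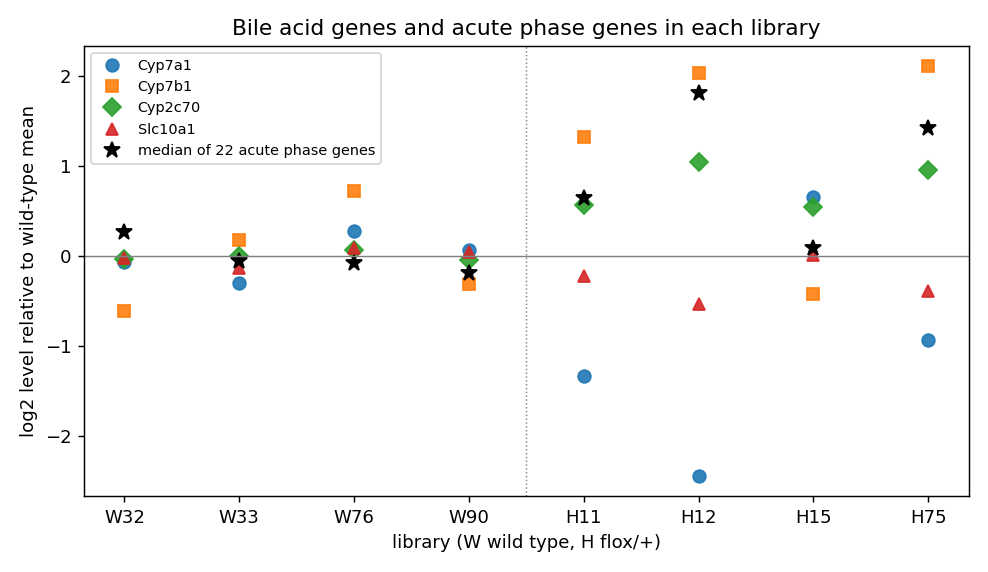
log2 level relative to the wild-type mean (vertical axis) of Cyp7a1, Cyp7b1, Cyp2c70 and Slc10a1 and of the median of 22 acute phase genes (stars) in each library (horizontal axis). In H15 the star is at 0.088, inside the wild-type range of -0.18 to 0.27, and Cyp2c70 is the 1 gene of the 4 that lies with the other flox/+ libraries.

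Markers of other liver cells were examined beside these results. Neutrophil markers summed to 0.378 to 1.12 CPM in wild type, 0.425 CPM in H15 and, across H11, H12 and H75, 3.45 to 4.39 CPM, so they followed the acute phase order at very low levels. Cholangiocyte markers summed to 35.3 to 91.2 CPM in wild type and 43.0 to 106 CPM in flox/+, and Sox9, a bile duct factor picked after its values were seen, was at 44.8 CPM in H12, 20.2 CPM in H75 and 7.90 to 9.57 CPM in the other 6 libraries. The remaining cholangiocyte markers did not follow Sox9: Krt7, Krt19, Epcam and Prom1 were at 0.1001, 0.450, 0.951 and 0.150 CPM in H75, among the lowest of the 8 libraries, and highest in H15. The list median was 0.29 with all libraries and -0.27 without H15. Kupffer cell markers summed to 110.3 to 267 and 113 to 263 CPM, and sinusoidal endothelial markers to 189 to 261 and 212 to 325 CPM. Stellate cell markers summed to 253 to 317 and 145 to 359 CPM. No tested gene of the Kupffer, endothelial or stellate lists had an unadjusted p under 0.05, whereas both tested neutrophil genes, S100a9 and S100a8, and Sox9 did. Their log2 fold changes were 2.13, 1.74 and 1.23. Without H15, edgeR called 2 neutrophil genes, where it called 1.74% of all genes. S100a9 was called there (adjusted p = 0.0211, edgeR) and S100a8 was not (adjusted p = 0.112, edgeR). The other gene called passed the filter on low counts in that fit and not with all 8 libraries. The part of these cells in the results was not tested.

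Among other genes of synthesis, 21 of 22 listed passed the filter. At an unadjusted p under 0.05, Cyp39a1 was higher and Abcd3, Pex5, Cyp46a1 and Stard4 were lower, where 4.9% of all genes were higher and 4.44% lower. None was called with edgeR, and the list median was 0.053. Cyp39a1 was called with DESeq2 (adjusted p = 0.0280, range 0.0280 to 0.678), where 1.12% of all genes were. Without H15, DESeq2 also called Abcd3 (adjusted p = 0.0196, range 0.0196 to 0.799), where it called 5.37% of all genes. Cyp39a1, an oxysterol 7-hydroxylase, was at 14.0, 13.6, 7.86 and 16.8 CPM in wild type. It was at 21.7, 23.7, 30.4 and 19.0 CPM in flox/+, above every wild-type library (log2 fold change 0.86, SE 0.22). Abcd3, a peroxisomal membrane transporter that brings bile acid precursors to side-chain shortening, was at 645 to 810 CPM in wild type and 536 to 630 CPM in flox/+ (log2 fold change -0.32). Pex5, an import receptor of peroxisomes, was also below the wild-type range in all flox/+ libraries (-0.20). Named for their role after their values were seen, Akr1d1, the 5-beta-reductase, had a log2 fold change of -0.28 and Slc27a5, the bile acid CoA ligase, of 0.053.

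Among other transporters, 16 of 18 listed were tested, with 1 higher, Slc22a7, and 0 lower at an unadjusted p under 0.05, where 4.9% and 4.44% of all genes were, and a median of -0.093. None was called by edgeR or DESeq2 with all libraries. DESeq2 without H15 called 5.37% of all genes, Slc22a7 (adjusted p = 0.0226, range 0.0226 to 0.910) and Slco1a4 (adjusted p = 0.00714, range 0.00714 to 0.910) among them. Slc22a7, an organic anion carrier, was at 26.9 to 73.6 CPM in wild type and 41.6 to 101 CPM in flox/+. Slco1a4, a sinusoidal uptake carrier, was at 41.7, 28.8, 14.7 and 24.4 CPM in wild type and 14.3, 9.21, 26.4 and 14.4 CPM in flox/+, with H15 again inside the wild-type range (log2 fold change -0.77, SE 0.35). It was -1.12 without H15 and -0.49 without W32. Abcc2, a canalicular exporter, had -0.14, and -0.062 without W32. Abcb4, the phospholipid floppase of bile, had 0.19, and 0.33 without H15. The uptake carrier Slco1b2 (-0.13, and -0.037 without H15) was named for its role after its values were seen.

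Among regulators, 19 of 22 listed were tested, with a list median of -0.040. At an unadjusted p under 0.05 Cebpb and Hnf4a were higher and Ppargc1a was lower, where 4.9% and 4.44% of all genes were. None was called with edgeR over all libraries. Cebpb alone was called with DESeq2 over all libraries, where 1.12% of all genes were, and by edgeR without H15, where 1.74% were. In that edgeR fit without H15, 2 regulators were higher and 4 lower by unadjusted p, where 1137 and 1181 of 14505 genes were. Hnf4a, a hepatocyte nuclear receptor that activates bile acid genes, was at 537, 504, 528 and 495 CPM in wild type and 609, 671, 538 and 715 CPM in flox/+. All flox/+ libraries lay above the wild-type range, H15 by little (log2 fold change 0.30, SE 0.11, adjusted p = 0.458, edgeR). Without H15, DESeq2 called Hnf4a at 0.37 (adjusted p = 0.00453, range 0.00453 to 0.842), where it called 5.37% of all genes. Cebpb, a factor of the acute phase response, was at 17.7 to 23.5 CPM in wild type and 35.3, 78.2, 17.1 and 49.8 CPM in flox/+ (log2 fold change 1.20, and 1.47 without H15 with an adjusted p of 0.0223 in edgeR, range 2.10e-07 to 0.794). Ppargc1a, a coactivator of fasting genes, had -0.63. Named for their role after their values were seen, Nr0b2 (SHP, a repressor downstream of FXR) ranged from 18.5 to 37.5 CPM in wild type and from 13.1 to 42.1 CPM in flox/+, and Klb and Fgfr4, the receptor pair of ileal FGF15, had log2 fold changes of -0.25 and -0.090, and of -0.45 and -0.22 without H15. Klb had 37.9 CPM in H15, whereas H11, H12 and H75 had 18.9 to 28.7 CPM and wild type 26.8 to 36.01 CPM.

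Among detoxification enzymes, 9 of 10 listed were tested, and Cyp3a13 alone was higher at an unadjusted p under 0.05, where 4.9% of all genes were. It was at 126, 107, 120 and 121 CPM in wild type and 158, 201, 141 and 186 CPM in flox/+, without overlap (log2 fold change 0.53, SE 0.12, adjusted p = 0.333, edgeR). DESeq2 called Cyp3a13 with all 8 libraries (adjusted p = 0.0109), where it called 1.12% of all genes. Without H15 edgeR called it at 0.62 (adjusted p = 0.0282, edgeR, range 3.05e-05 to 0.661), where 1.74% of all genes were called. Among cholesterol supply genes, Scarb1, a lipoprotein receptor, was higher, and those lower at an unadjusted p under 0.05 included Hmgcs1 and Insig1. Hmgcs1, an early enzyme of cholesterol synthesis, was at 370, 421, 437 and 435 CPM in wild type and 267, 391, 374 and 255 CPM in flox/+, with H12 and H15 inside the wild-type range (log2 fold change -0.37, SE 0.15, adjusted p = 0.493, edgeR).

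Cyp7a1 transcription follows the day, so 17 clock genes were examined. With all libraries, Per1 and Nfil3 were higher and 0 genes were lower (unadjusted p under 0.05), where 4.9% and 4.44% of all genes were, none was called with edgeR or DESeq2, and the list median was -0.14. Without H15, 2 clock genes were higher and 5 lower in the edgeR fit, where 1137 and 1181 of 14505 genes were, and the list median was -0.23. DESeq2 then called Per1 (adjusted p = 0.0216, range 0.0216 to 0.744), where it called 5.37% of all genes. Dbp, a clock output factor that peaks in the evening in mouse liver and was described after its values were seen, was at 0.617 to 1.10 CPM in wild type and 0.539 to 1.10 CPM in flox/+. Nr1d1 varied more, at 26.9, 13.2, 15.8 and 6.05 CPM in wild type. It was at 13.4, 7.32, 1.74 and 7.75 CPM in flox/+, lowest in H15. Its log2 fold change was -1.04 (SE 0.54, unadjusted p = 0.0855, edgeR). Hlf had -0.30, and -0.45 without H15. The part of the clock genes in the results was not tested. Nfil3, a repressor at D-boxes, was at 45.7 to 52.6 CPM in wild type and 75.4, 85.3, 45.9 and 76.3 CPM in flox/+. Without H15 its log2 fold change was 0.70 (adjusted p = 0.00798, edgeR, range 9.30e-09 to 0.799), where edgeR called 1.74% of all genes.

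Predicted gene models, unannotated loci and genes named by a clone or sequence number were left out of a search for similar patterns. Among the 7084 remaining genes with a mean of at least 10 CPM, those most like Cyp7a1 over the 8 libraries were Gas1, Aacs and Prob1. Their root mean square distances between centred log2 levels were 0.37, 0.41 and 0.42. Aacs, acetoacetyl-CoA synthetase, was at 72.6 to 88.1 CPM in wild type and 32.8, 26.4, 101.3 and 28.0 CPM in flox/+, with H15 above the wild-type range as for Cyp7a1. The nearest to Cyp8b1 were Hsd3b3, Ube2o and Ulk2 (0.056, 0.064 and 0.070). The nearest to Cyp2c70 were Lifr, Ip6k2 and Hist2h2aa2 (0.12, 0.14 and 0.14). Lifr, a receptor subunit for interleukin-6 family cytokines, was at 108 to 135 CPM in wild type and 176, 208, 156 and 232 CPM in flox/+. These distances describe 8 libraries and carry no test.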

How the data were processed

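Total RNA of 8 livers, 4 a group, was measured by ribosomal-RNA-depleted sequencing. The authors deposited estimated counts per gene, not normalized. The submitters' processing notes name mm10 and, without roles, SAMtools 1.9, GATK 3.8, Bowtie2 2.2.9 and fastp 0.19.5. No source used here gives the counting program, its annotation or its strand setting. Of the deposited values 90.0% were whole, and 541 unannotated loci held 0.431 to 0.977% of counts. The authors' deposited comparison gives a fold (ratio), a log2 fold change and p-values, per the file headers. Its log2 sign matched flox/+ over wild type for 99.5% of 13971 genes. Columns give the group by letter and no replicate number.

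Counts were rounded, filtered with filterByExpr (14261 genes) and scaled with TMM (factors 0.900 to 1.06). Groups were compared in all 8 libraries by edgeR's quasi-likelihood test (version 4.0.16, R 4.3.3), without covariates, at a Benjamini-Hochberg adjusted p under 0.05. CPM uses TMM-scaled totals. Confidence intervals are 95%. DESeq2 1.42.0 and limma 3.58.1 (voom), other scalings and filters, and leaving out each library were alternatives. DESeq2 and voom without H15 were added after seeing the data. Scripts were tested on simulated data. Positions are from GENCODE mouse release M21 (GRCm38), and promoters from RefSeq. List medians relative to the wild-type mean used an offset of 0.1 CPM before log2, and the centred log2 levels behind the pattern distances used none.

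The members and all 22 gene lists were chosen with earlier results of these data known. Named genes are the members, Eif2s1, up to 4 genes of lowest p per list, any called, and the 3 genes nearest in pattern to Cyp7a1, Cyp8b1 and Cyp2c70. The cholesterol supply list is not reported in full here.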

Additional observations from a re-analysis of the deposited data

Results flagged for a closer look

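Of 124 groups of 4 libraries examined, 3 held a library whose gap to the nearest other exceeded the critical value of Dixon's test at the 95% level, and chance gives about 1 in 20. None was a group of a bile acid member. Ugt1a1, which glucuronidates bilirubin and bile acids, was at 449 CPM in H11 and 408 to 410.4 CPM in the other flox/+ libraries. Mt2, a metallothionein of the acute phase list, was at 5.93 CPM in W32 and 1.78 to 2.43 CPM in the other wild-type libraries. Socs3, a feedback inhibitor of cytokine signalling, was at 4.68 CPM in W33 and 1.97 to 2.42 CPM in the other wild-type libraries.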

How the results depend on the processing

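No paired analysis was possible because no label pairs a wild-type mouse with a flox/+ mouse. Over 20 settings, 18 of them planned, Cyp2c70 and Cyp7b1 stayed higher and Cyp7a1, Slc10a1 and Abcb11 lower. The number of genes called was 0 with edgeR, 18 with no filter on low counts, 150 with DESeq2, and 1 each with the newer quasi-likelihood method, with a robust fit and with unannotated loci removed. It ran from 0 to 252 when single libraries were left out, with 2 without W32 and 252 without H15. With H15 left out, DESeq2 called 778 and limma-voom 197. Bile acid genes called numbered 1 with no filter and 1 with DESeq2, 0 to 3 with single libraries left out, and 4 (DESeq2) and 3 (limma-voom) without H15. Members at an unadjusted p under 0.05 numbered 2 to 4 with single libraries left out, and 4 with either tool without H15, and in edgeR the share of all genes was 9.34% with all libraries and 16.0% without H15. Signs that turned belonged to values near 0, and the cause was not tested. With single libraries left out, Cyp8b1 ran from -0.077 to 0.099, Baat from -0.051 to 0.044, Nr1h4 from -0.032 to 0.083, Hsd3b7 from -0.041 to 0.032, Nr0b2 from -0.33 to 0.16 and Slc27a5 from -0.0018 to 0.082. Library totals gave -0.018 for Cyp27a1, -0.067 for Nr1h4 and -0.036 for Slc27a5. Without H15, DESeq2 and limma-voom gave 0.028 and 0.029 for Cyp8b1, 0.017 and 0.016 for Baat, 0.035 and 0.032 for Hsd3b7, and 0.17 and 0.15 for Nr0b2, and limma-voom gave -0.0046 for Nr1h4. Every member had at least 731 counts in each library.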

Other observations

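Genes of liver zonation were examined beside the bile acid genes, and at an unadjusted p under 0.05 4.9% of all genes were higher and 4.44% lower. Of 12 pericentral hepatocyte genes tested, Cyp1a2 was higher and Tbx3 lower at that threshold, and the list median was -0.054. Cyp1a2, a pericentral cytochrome P450, was at 341, 493, 468 and 352 CPM in wild type and 637, 539, 504 and 670 CPM in flox/+, without overlap (log2 fold change 0.51, SE 0.15). Of 12 periportal genes, Igfbp2 and Pck1 were higher, 11 had a higher mean, and the median was 0.14. Igfbp2, a binding protein of insulin-like growth factors, was at 108 to 182 CPM in wild type and 199, 330, 171 and 314 CPM in flox/+ (log2 fold change 0.79). With all 8 libraries no gene of either list was called with edgeR or DESeq2. Without H15, DESeq2 called Cyp1a2 (adjusted p = 0.0136, range over 20 settings 0.0136 to 0.755), Igfbp2 (adjusted p = 0.00258, range 0.00258 to 0.801) and Pck1 (adjusted p = 0.0125, range 0.0125 to 0.870), where it called 5.37% of genes.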
